A study of Sus scrofa with 32 samples.

Results

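Testis RNA from 17 of 32 sequenced pigs was compared by the breeding value of their sires for androstenone, with 10 pigs in a high group and 7 in a low group. An estimated breeding value (EBV) is a score of the genetic merit that an animal passes to its offspring, and its unit is not given in the labels. Pigs whose sire had a value of 0.2 or more formed the high group, and those whose sire had -0.35 or less formed the low group. The values nearest to these limits among the 15 pigs in between were 0.14 and -0.12. All pigs were crossbred males of Duroc with Landrace or Yorkshire from Denmark, slaughtered near 100 kg, and were sampled from animals divergent in androstenone and skatole.

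In the high group 6 pigs received 15% chicory for 3 days before slaughter and 4 a control diet. The low group had 4 pigs on chicory and 3 on control diet. By the submitters' androstenone and skatole (AS) classes, 7 high pigs were High AS and 3 Low AS, while 2 low pigs were High AS, 4 were Low AS and 1 had no class. Every pig of a sow carried 1 sire value within these groups, so 17 pigs represented 6 families. The high families came from sow 1235 (sire value 0.36, 2 pigs), sow 641 (0.26, 3 pigs) and sow 210 (0.2, 5 pigs). The low families came from sow 773 (-0.49, 2 pigs), sow 1014 (-0.44, 3 pigs) and sow 1134 (-0.35, 2 pigs). Pigs of 1 sire share his value, and the labels do not identify sires beyond it, so sire value, sire and dam cannot be told apart within these families.

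The index sets followed the same division. Libraries fall into 4 sets of 8 by the first index of their names, and the labels do not say whether a set marks a batch. Of the high pigs 6 were in set 1 and 4 in set 2, and of the low pigs 6 were in set 4 and 1 in set 2. The 4 high libraries of set 2 were also the libraries of lane 7. Set 2 libraries were deeper, with 10585625 to 20349500 counts in genes against 1855174 to 5993637 in the other 24, and are called deep here, the others plain. Among plain libraries the index set and the sire group cannot be told apart. Gene counts ranged from 2268778 to 20349500 in the high group and from 2867910 to 15015113 in the low group. The median correlation of a library with the others was 0.926 to 0.957 in the high group and 0.932 to 0.953 in the low group. An intermediate pig of sow 930 stood apart at 0.795, and it enters only the fits over 32 pigs.

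Androstenone is a 16-androstene steroid with a pheromone role that is made in the Leydig cells of the boar testis from pregnenolone and is stored in fat, where it contributes to boar taint. CYP11A1 makes pregnenolone from cholesterol, CYP17A1 with cytochrome b5 (CYB5A) forms both androgens and the 16-androstene precursor, and steroid 5-alpha-reductase (SRD5A1) acts late in the route. Luteinizing hormone drives this synthesis through its receptor on Leydig cells, while most RNA of an adult testis comes from germ cells. Markers of the tissue were present: 13 matched Leydig cell markers were above a median of 1 CPM (counts scaled to library size) save PRLR, and all 20 elongating spermatid markers were above it. Among 6 epididymis markers 4 were under 1 CPM, as were 3 of 4 blood cell markers and 10 of 16 of macrophages and lymphocytes.

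Androstenone was higher in the pigs of high sires. It was 3.19 mg/kg ± 2.42 (SD, n = 10) in the high group and 0.448 mg/kg ± 0.581 (SD, n = 6) in the low group, a difference with a two-sided exact permutation p of 0.003497 over pigs (adjusted p = 0.01399 over 4 tests). High pigs ranged from 0.79 to 7.77 mg/kg around a median of 2.85, and low pigs from 0 to 1.46 around a median of 0.28. The groups therefore overlapped. Family means were 2.53, 4.20 and 3.34 mg/kg for sows 210, 641 and 1235, all above the 0.67 of sow 773, the 0.673 of sow 1014 and the 0 of sow 1134. With families as the unit (n = 3 and 3), the exact permutation p was 0.1, the smallest that design can give (adjusted p = 0.2). Since pigs were sampled for divergent androstenone, these levels describe the sampled animals. Carcass weight averaged 90.0 kg ± 6.92 (SD, n = 10) in the high group and 88.0 kg ± 6.59 (SD, n = 6) in the low group (exact permutation p = 0.576, adjusted p = 0.7).

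**Figure D1:**
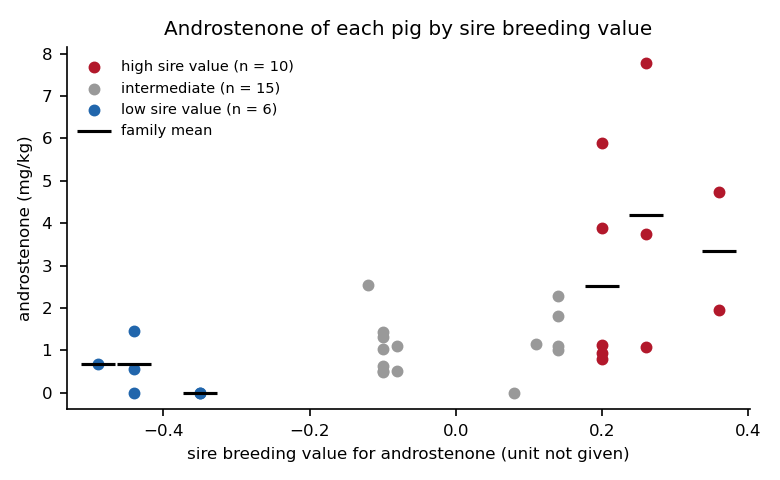
Androstenone of each pig (mg/kg, vertical axis) against the breeding value of its sire (horizontal axis, unit not given), with points coloured by sire group and black bars for the means of the 6 families compared. All 6 low pigs with a value lie at or below 1.46 mg/kg, while high pigs spread from 0.79 to 7.77 mg/kg.

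ABCB10 was the single gene called between the groups with pigs as replicates, and it was lower in pigs of high sires. ABCB10 is a transporter of the inner mitochondrial membrane that is known for its role in heme synthesis and in red cell precursors. It had 13.03 to 25.1 CPM in high pigs (median 21.5) and 21.5 to 99.5 CPM in low pigs (median 71.8). Of the 7 low pigs 6 lay above every high pig, and the exception was a pig of sow 773 at 21.5 CPM. The log2 fold of high minus low was -1.61 (SE 0.23, adjusted p = 0.0111, edgeR quasi-likelihood test with Benjamini-Hochberg adjustment). It was 1 call among 12132 genes tested, or 0.00824%. A total of 1349 genes had an unadjusted p under 0.05, 713 of them higher (5.88% of those tested) and 636 lower (5.24%) in high pigs. DESeq2, on the same genes and terms, called 50 (0.412%), 30 higher and 20 lower, and a limma voom model in which pigs of 1 sow were correlated called 0, with 1093 at an unadjusted p under 0.05. The p-values over pigs treat pigs of a family as independent, save in the voom fit, and are therefore too small where families differ.

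The ABCB10 difference was large in 2 of the 3 low families. Mean levels were 80.0 CPM in sow 1134's pigs, 73.2 CPM in sow 1014's and 30.1 CPM in sow 773's. The 3 high families had 15.8, 20.6 and 22.7 CPM for sows 1235, 641 and 210. Over families, with the counts of plain libraries summed to 3 against 3, the log2 fold was -1.65 (SE 0.33) and did not pass (adjusted p = 0.458). That test called 1 of 13248 genes (0.00755%), described below, with 665 at an unadjusted p under 0.05. In whole tissue, fewer cells of a type and less RNA per cell cannot be told apart.

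Pigs of intermediate sires place the ABCB10 values beside the index sets. In set 4, which held most low pigs, the 2 intermediate pigs had 46.9 and 75.7 CPM. In set 1, which held most high pigs, the 2 intermediate pigs had 20.9 and 21.5 CPM. The 8 intermediate pigs of set 3 had 21.1 to 59.6 CPM around a median of 24.2. Set 2 alone held both groups, with 71.8 CPM in its 1 low pig and 16.9 to 25.1 CPM in its 4 high pigs. Its 3 intermediate pigs had 13.8 to 25.8 CPM. Its high libraries were on lane 7 and its low library on lane 6, so lane and group cannot be told apart there. With index set as a term in a fit to all 32 pigs, the log2 fold was -0.89 (SE 0.36, adjusted p = 0.934), against -1.50 (SE 0.28, adjusted p = 0.0509) in those pigs with the depth term. The call also ended in plain libraries alone (log2 fold -1.57, adjusted p = 0.322) and without low replicate 3, the deep low library (-1.58, adjusted p = 0.1001).

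**Figure D2:**
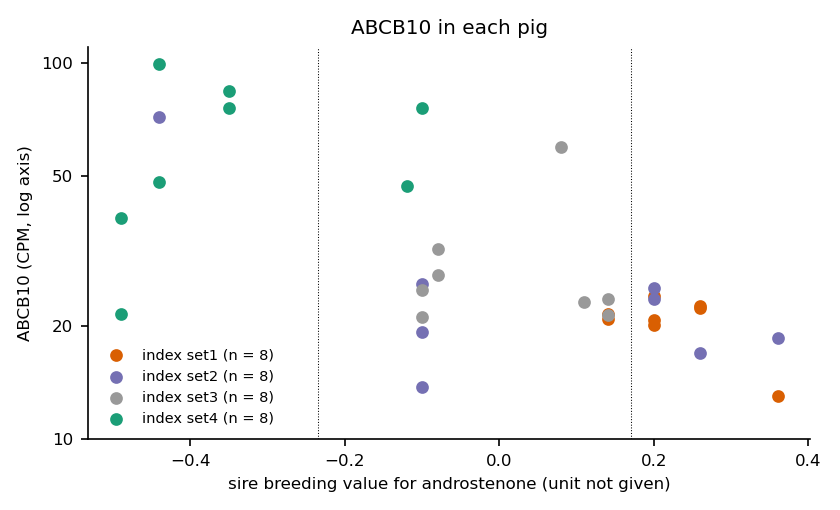
ABCB10 in each of the 32 pigs (CPM, log axis) against the breeding value of its sire, coloured by index set, with dotted lines midway between the groups. Low pigs reach 99.5 CPM, both intermediate pigs of set 4 lie at 46.9 CPM or more, and no high pig exceeds 25.1 CPM.

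Iron and heme genes other than ABCB10 were not called. Of 11 tested members, ABCB10 included, 6 were higher and 5 lower in high pigs, with a median log2 fold of 0.07 against -0.0044 over all genes. Over families 4 of the 11 were higher and the median was -0.10, against -0.02 over all genes. TFRC, the transferrin receptor that takes up iron, had a log2 fold of -0.62 (SE 0.28, adjusted p = 0.429), which was -0.26 without low replicate 3 and -0.10 without its family, that of sow 1014. CPOX, coproporphyrinogen oxidase, had -0.48 (SE 0.26), and UROS, uroporphyrinogen III synthase, had 0.34 (SE 0.18). ALAS1, the first enzyme of heme synthesis outside red cells, had 0.07 (SE 0.31), and FECH, which inserts the iron, had 0.07 (SE 0.20). ABCB10's neighbours were taken as the nearest 10 tested genes with a matched symbol, 5 on each side in the Sscrofa11.1 RefSeq order. Their log2 folds were -0.30 to 0.29, with 0 at an unadjusted p under 0.05. Tested genes without a symbol were skipped, so nearer ones may exist.

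Of the 5 higher genes with a symbol and the smallest p, 0 passed the adjusted threshold in edgeR. PHOSPHO2, a phosphatase acting on pyridoxal phosphate, had 13.7 to 44.9 CPM in high pigs (median 30.7) and 9.38 to 18.4 CPM in low pigs (median 13.7). Of the 10 high pigs 9 lay above every low pig, and the log2 fold was 1.10 (SE 0.20, adjusted p = 0.0691). SERPINB5, the serpin known as maspin, had 17.9 to 39.8 CPM (median 33.7) in high pigs and 9.30 to 26.8 CPM (median 14.3) in low pigs. For SERPINB5 7 high pigs exceeded all low pigs, and the log2 fold was 0.99 (SE 0.19, adjusted p = 0.0879). That difference passed without low replicate 7, the 1 low pig that overlapped the high group, at 26.8 CPM (log2 fold 1.18, adjusted p = 0.00499). Leaving out that pig favours a smaller p. The adjusted p was 0.413 without low replicate 3, 0.555 without sow 1014 and 0.548 without sow 210. SERPINB5 passed in 8 of 38 alternatives.

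The 3 further higher genes also missed the adjusted threshold in edgeR. PAPPA, a secreted protease that cleaves insulin-like growth factor binding proteins, had 4.34 to 17.05 CPM in high pigs and 1.21 to 5.70 CPM in low pigs (log2 fold 1.62, SE 0.34, adjusted p = 0.122). SPATC1, which encodes the sperm centrosome protein speriolin, had 135 to 311 CPM in high pigs and 76.7 to 141 CPM in low pigs (0.82, SE 0.17, adjusted p = 0.110). GDAP1L1, a relative of the mitochondrial protein GDAP1, had 28.6 to 65.6 CPM in high pigs and 14.1 to 32.4 CPM in low pigs (0.82, SE 0.18, adjusted p = 0.134). In each of these genes the ranges overlapped, with 8, 9 and 9 of the 10 high pigs above all low pigs for PAPPA, SPATC1 and GDAP1L1. For PAPPA the family means of log2 CPM in plain libraries overlapped too. They were 2.22 in the high family of sow 1235, with 1 plain library, and 2.26 in the low family of sow 1134.

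UACA, named for its small p, did not overlap between the groups over the 17 pigs, although it did not pass the adjusted edgeR test. How many of all genes separate the 17 pigs in this way was not counted, and picking genes by a small p in these pigs favours such a separation. UACA, a protein linked to apoptosis signalling, had 23.7 to 40.9 CPM in high pigs (median 36.5) and 48.9 to 61.3 CPM in low pigs (median 55.6). Its log2 fold was -0.63 (SE 0.12, adjusted p = 0.0981). Family means of UACA were 33.4 to 38.7 CPM in the high families and 53.3 to 57.7 CPM in the low families. Over all genes tested, the 3 high family means lay above the 3 low ones for 697 genes (5.75%) and below them for 576 (4.75%), on log2 CPM of plain libraries. Intermediate pigs had 30.2 to 91.5 CPM of UACA and so covered both groups.

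TNN and HIP1R were also among the genes with the smallest p of those lower in high pigs. TNN, the extracellular matrix protein tenascin-N, had 1.74 to 7.96 CPM in high pigs and 6.65 to 18.0 CPM in low pigs (log2 fold -1.42, SE 0.30, adjusted p = 0.122). HIP1R, which links clathrin coats to actin in endocytosis, had 2.17 to 9.87 CPM in high pigs and 3.94 to 15.2 CPM in low pigs (-1.41, SE 0.28, adjusted p = 0.0981). Of the 7 low pigs 6 lay above every high pig for TNN and 3 for HIP1R, so the groups overlapped in both genes. The log2 fold of TNN was -0.88 without low replicate 3, -0.78 without sow 1014 and -0.87 over families.

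**Figure D3:**
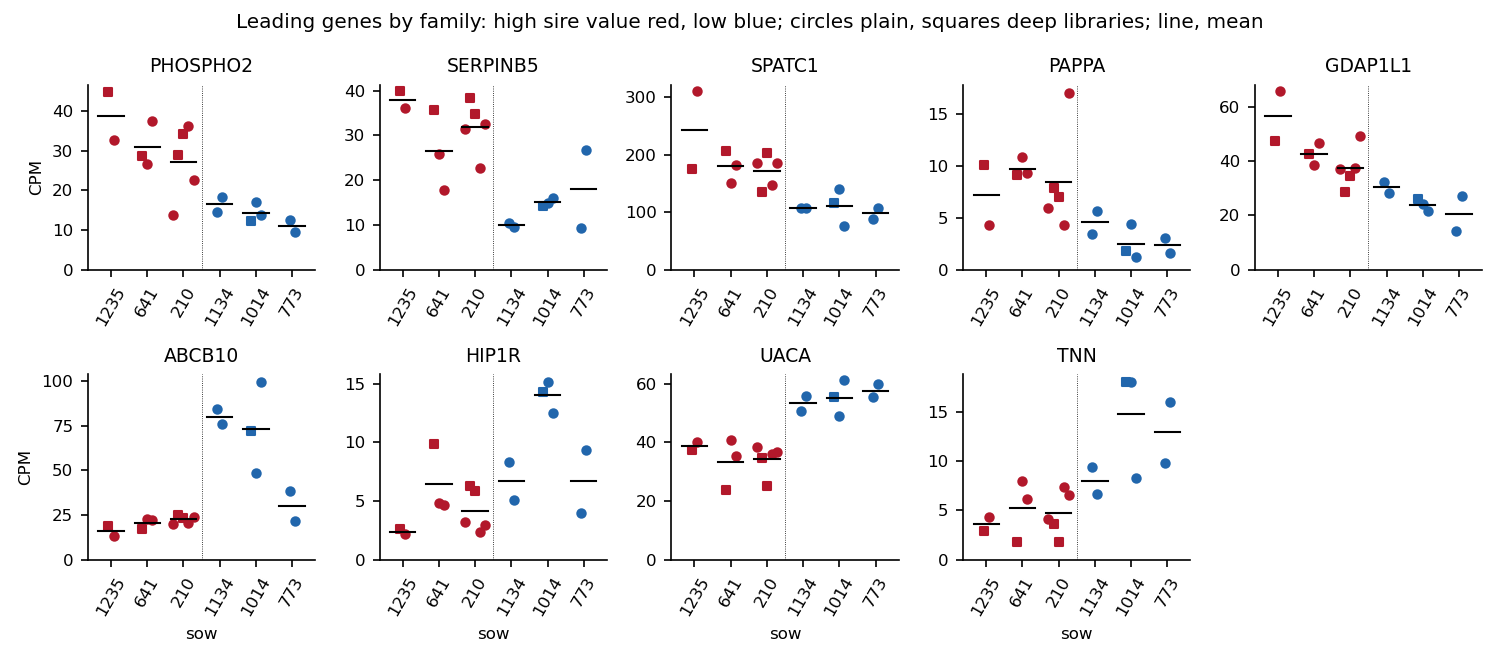
CPM of the 9 genes named above for each pig, by sow (horizontal axis, sire value falling from left to right), with high families in red, low families in blue, circles for plain and squares for deep libraries, and a line at the family mean. UACA, picked for its small p in these pigs, shows no overlap between the groups, and the ABCB10 values of sow 773's pigs lie nearest to the high families.

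DESeq2 called all 9 of these genes over pigs, with adjusted p of 5.04e-07 for ABCB10, 0.000168 for PHOSPHO2 and 0.000832 for SERPINB5, and limma voom none. In the fit to 32 pigs, index set in place of the depth term brought the log2 folds of 7 of the 9 nearer to 0, and 1 of them, SPATC1, turned from 0.79 to -0.21 (SE 0.47). GDAP1L1 went from 0.79 to 0.21 (SE 0.37), HIP1R from -1.39 to -0.55 (SE 0.50) and SERPINB5 from 0.98 to 0.55 (SE 0.47). With index set PHOSPHO2 was at 1.09 (SE 0.36), PAPPA at 1.40 (SE 0.69), UACA at -0.66 (SE 0.20) and TNN at -1.50 (SE 0.47). None of the 9 passed in that edgeR fit, which called 0 genes and had 512 of 12714 at an unadjusted p under 0.05. Their adjusted p values in it were 0.934 to 0.974. SPATC1 had 38.7 and 66.1 CPM in the intermediate pigs of set 4 and 149 and 159 CPM in those of set 1. PHOSPHO2 had 12.1 and 18.3 CPM in the former and 14.5 and 20.9 CPM in the latter.

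The gene called over families has no symbol in the tables used, and it and another nameless gene were named after their values were seen. ENSSSCG00000020872 had 0.834 to 10.5 CPM in high pigs (median 7.94) and 0 to 2.09 CPM in low pigs (median 0.95). Its log2 fold over families was 3.24 (SE 0.40, adjusted p = 0.0236) and over pigs 2.31 (SE 0.53, adjusted p = 0.153). It met the count filter over pigs only through the high group, where 7 pigs reached the limit of 2.40 CPM against 0 low pigs, and so it had to differ if it was tested. Its p-values over pigs, plain libraries included, are therefore no support for a difference. The fit over families also filtered by group, and which families reached its limit was not counted, so that call is not taken as support either. This gene was not tested in 7 of the 17 fits without 1 pig and in 3 of the 6 without 1 family. The 3 high pigs that did not exceed all low pigs or came nearest to them were deep libraries, at 0.834, 1.35 and 2.61 CPM. The 1 pig-level call in plain libraries alone was this gene (log2 fold 3.18, adjusted p = 0.00726). With deep libraries added to the family sums it did not pass (2.12, adjusted p = 0.162), nor without sow 1134 (2.999, adjusted p = 0.265), sow 641 (3.09, adjusted p = 0.0677) or sow 1235 (3.24, adjusted p = 0.0515).

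ENSSSCG00000027805 was near 0 in most high pigs, and 1 high and 6 low pigs reached the filter limit, with 7 pigs needed. It met the filter over pigs mainly through the low group. A difference was thereby favoured, and its p-values are no support for one. It had 0 to 4.90 CPM in the high group (median 0.459) and 0 to 27.2 CPM in the low group (median 18.7). Within sow 773's family the pigs had 0 and 19.6 CPM, and intermediate pigs spread from 0 to 28.4 CPM. Its log2 fold was -3.55 (SE 0.63, adjusted p = 0.0691) over pigs and -3.48 (SE 0.50, adjusted p = 0.0574) over families.

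Of genes of androgen and androstenone synthesis 0 were called by edgeR, DESeq2 or voom. Of 13 tested members 5 were higher and 8 lower, with a median log2 fold of -0.03. SRD5A1 had 36.6 to 158 CPM in high pigs (median 54.2) and 21.6 to 79.1 CPM in low pigs (median 38.4), a log2 fold of 0.59 (SE 0.32, adjusted p = 0.501). The highest SRD5A1 value belonged to high replicate 3, from sow 210, with the next pig at 87.0 CPM, and the log2 fold was 0.28 without it and 0.92 in plain libraries alone. CYP17A1 had 306 to 1945 CPM in high pigs and 278 to 2889 CPM in low pigs (-0.02, SE 0.40). CYP11A1 had 86.4 to 298 CPM in high pigs and 55.9 to 432 CPM in low pigs (-0.07, SE 0.37).

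Other steroidogenic genes overlapped as widely. CYB5A had a log2 fold of 0.18 (SE 0.25) and NR5A1, the nuclear receptor that activates steroidogenic genes, -0.04 (SE 0.41). LHCGR, the luteinizing hormone receptor, had 1.16 to 8.67 CPM in high pigs and 0.261 to 7.33 CPM in low pigs (0.03, SE 0.48). INSL3, the Leydig cell hormone of testicular descent, had 401 to 2378 CPM in high pigs and 328 to 2252 CPM in low pigs (0.03, SE 0.38). The signs of CYP17A1, CYP11A1, LHCGR, INSL3 and NR5A1 turned under several alternatives, and that of CYB5A when 1 pig or family was left out. Over families CYB5A had -0.08 and INSL3 -0.17. Leydig cell markers as a list were 5 higher and 7 lower of 12 tested, with a median log2 fold of -0.03 (-0.18 over families, with 4 of 12 higher). Their summed level was 1855 to 6158 CPM in high pigs and 1402 to 7541 CPM in low pigs.

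Of the 13 members 3 had an unadjusted p under 0.05, all of them lower in high pigs. Over all genes 5.24% were lower at that p. HSD17B3, which makes testosterone from androstenedione, had 38.3 to 180 CPM in high pigs (median 65.0) and 69.3 to 255 CPM in low pigs (median 119), a log2 fold of -0.53 (SE 0.26, adjusted p = 0.468). HSD17B4, a peroxisomal enzyme of fatty acid and estrogen metabolism, had 30.5 to 79.0 CPM in high pigs and 63.0 to 103 CPM in low pigs (-0.53, SE 0.16, adjusted p = 0.273). HSD17B7, which acts in cholesterol synthesis and on estrone, had -0.75 (SE 0.33, adjusted p = 0.398), and HSD17B12, an enzyme of fatty acid elongation, had -0.40 (SE 0.19, adjusted p = 0.438). HSD17B4, HSD17B7 and HSD17B12 were these 3 members, while HSD11B1, which interconverts cortisone and cortisol, had 0.09 (SE 0.24). With index set in the fit to 32 pigs HSD17B7 had -0.10, HSD17B3 -0.17 and HSD17B4 -0.20.

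Cholesterol and xenobiotic genes gave 0 calls with edgeR, DESeq2 or voom. Of 26 genes of cholesterol synthesis, uptake and storage 11 were higher, with a median log2 fold of -0.03. Of the 26, 2 were lower at an unadjusted p under 0.05, against 5.24% of all genes. The 2 were NPC1 and HSD17B7, and HSD17B7 is also counted among the androgen synthesis genes above. NPC1, which moves cholesterol out of lysosomes, had 1.94 to 13.9 CPM in high pigs and 7.45 to 19.7 CPM in low pigs (-0.87, SE 0.32, adjusted p = 0.324). Among 11 genes of xenobiotic and skatole metabolism, FMO1, a flavin monooxygenase, had 3.43 to 39.0 CPM in high pigs and 7.84 to 197 CPM in low pigs (-1.52, SE 0.57, adjusted p = 0.327). Its low group rested on replicate 6, as the next pig had 36.1 CPM, and the log2 fold was -0.59 without that pig and -2.97 without the high family of sow 210. CYP4B1, a cytochrome P450 of fatty acids and foreign compounds, had 11.3 to 57.5 CPM in high pigs and 2.22 to 33.0 CPM in low pigs (1.03, SE 0.40, adjusted p = 0.350, and 0.68 without sow 1134). The 6 tested genes of steroid sulfation and conjugation ranged from -0.40 to 0.09 on the log2 scale.

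Elongating spermatid markers leaned to higher levels in high pigs, with 0 of 20 called by edgeR or voom and 1, SPATA3, by DESeq2. Of the 20 members 19 were higher and 11 had an unadjusted p under 0.05, with a median log2 fold of 0.34 against -0.0044 over all genes. Over all genes 49.3% were higher, and 5.88% were higher at an unadjusted p under 0.05. PRM1 and PRM2, the protamines that package sperm DNA, had log2 folds of 0.56 (SE 0.18, adjusted p = 0.281) and 0.94 (SE 0.29, adjusted p = 0.273). PRM2 had 714 to 3888 CPM in high pigs and 429 to 1430 CPM in low pigs. SPATA3, a testis gene of spermatogenesis, had 445 to 935 CPM in high pigs and 302 to 516 CPM in low pigs (0.62, SE 0.15, adjusted p = 0.184). ODF2, of the outer dense fibres of the tail, had 0.39 (SE 0.14), GAPDHS, the glycolytic enzyme of sperm, 0.36 (SE 0.13), and the transition protein genes TNP1 and TNP2 0.33 (SE 0.16) and 0.46 (SE 0.20).

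The summed elongating spermatid level was 39309 to 70050 CPM in high pigs and 26279 to 47569 CPM in low pigs. Family means of the list's mean log2 CPM in plain libraries were 10.17, 10.26 and 10.8 in the high families. The low families had 9.78, 10.05 and 10.14. The 10.8 came from the 1 plain library of sow 1235. In set 2, which held both groups, the low pig (lane 6) had 9.98 and the 4 high pigs (lane 7) 10.2 to 10.5. Intermediate pigs had 10.3 and 10.5 in set 1, 10.1 to 10.4 in set 2, 7.33 to 10.6 in set 3, and 9.03 and 9.24 in set 4. With index set in the fit to 32 pigs, 0 of 20 members were higher and the median log2 fold was -0.40. In the 32-pig fit with the depth term 18 were higher and the median was 0.32. Round spermatid markers, 10 of 18 higher, had a median of 0.0048, with TSSK6, a kinase of late spermatids listed with both stages, at 0.44 (SE 0.17).

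**Figure D4:**
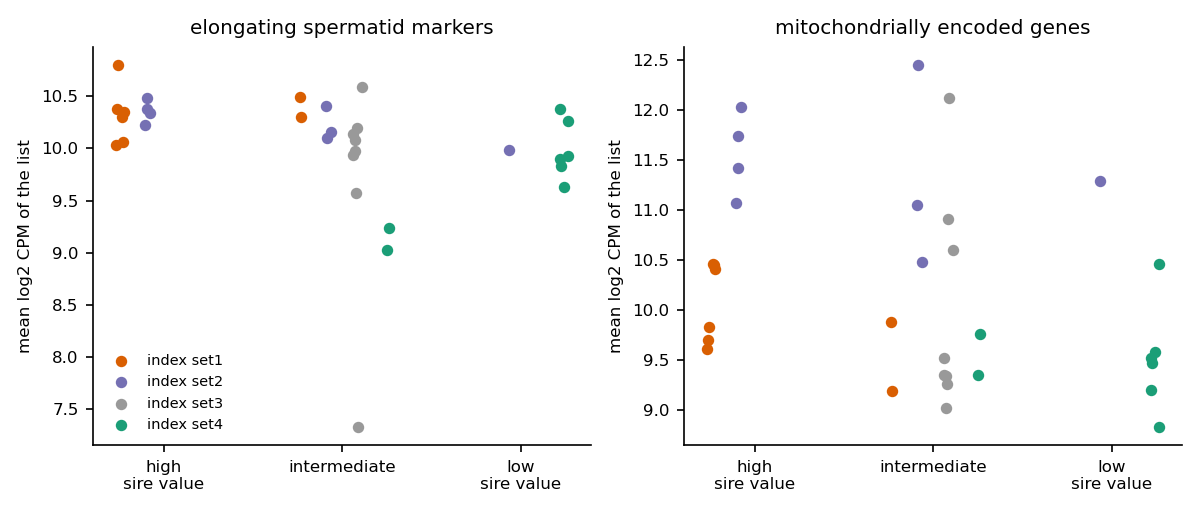
Mean log2 CPM of elongating spermatid markers (left) and of mitochondrially encoded genes (right) in each pig by sire group, coloured by index set. High pigs of set 1 lie at 10.04 to 10.8 for spermatid markers and intermediate pigs of set 4 at 9.03 and 9.24, while the set 2 libraries of the high and low groups have higher mitochondrial levels than the other libraries of their group.

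Mitochondrially encoded genes were higher in high pigs for 12 of 13 members, with 6 at an unadjusted p under 0.05. Of the list 0 were called by edgeR, DESeq2 or voom, and the median log2 fold was 0.48. Over all genes 49.3% were higher, and 5.88% were higher at that p. In plain libraries the list's mean log2 CPM averaged 9.83, 10.03 and 10.19 in the families of sows 1235, 641 and 210. The low families of sows 1134, 1014 and 773 had 9.15, 9.36 and 10.02, so the families of the groups overlapped. ND1, ND3, ND4 and ND4L, subunits of respiratory complex I, had log2 folds of 0.71 (SE 0.25), 0.58 (SE 0.24), 0.79 (SE 0.26) and 0.69 (SE 0.22). ND6, the complex I subunit encoded on the opposite strand, had -0.02 (SE 0.26). All deep libraries were in set 2, so depth and index set cannot be told apart there. For the list's mean log2 CPM, deep high libraries had 11.1 to 12.03 and the deep low library 11.3, while plain high libraries had 9.61 to 10.5 and plain low libraries 8.83 to 10.5. Without the depth term the median log2 fold was 0.99, in plain libraries alone 0.47, and with index set over 32 pigs 0.43 with 11 of 13 higher. The share of counts in the 10 most abundant genes was 6.45% to 15.8% in high pigs and 5.83% to 8.55% in low pigs.

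Spermatocyte markers were split, with 0 called by the 3 tools, 9 of 22 higher, a median log2 fold of -0.06 and 7 lower members at an unadjusted p under 0.05, against 49.3% higher and 5.24% lower at that p over all genes. HORMAD1 and HORMAD2, which mark unsynapsed meiotic chromosomes, had log2 folds of -0.63 (SE 0.19, adjusted p = 0.263) and -0.54 (SE 0.19, adjusted p = 0.304). HORMAD1 had 58.8 to 116 CPM in high pigs and 80.5 to 197 CPM in low pigs, and the highest was low replicate 5. MYBL1, the transcription factor of pachytene spermatocytes, had -0.56 (SE 0.20), and PIWIL2, a protein of the piRNA pathway, -0.52 (SE 0.20). Without sow 1014 these were -0.21 and -0.22 and HORMAD2 -0.34, and with index set in the fit to 32 pigs HORMAD1 had -0.10. The summed level of the list overlapped, at 2465 to 3238 CPM in high pigs and 2236 to 3745 CPM in low pigs. HORMAD1 reached 228 and 170 CPM in the intermediate pigs of set 4, against 79.3 and 102 CPM in those of set 1.

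The remaining lists had 0 calls with edgeR, DESeq2 or voom. Sertoli cell markers had 6 of 12 higher and a median log2 fold of -0.0014, peritubular and smooth muscle markers 6 of 12 and 0.01, and endothelial markers 3 of 7 and -0.04. Spermatogonial markers had 5 of 8 higher and a median of 0.06, and macrophage and lymphocyte markers 3 of 6 and -0.03. Over families Sertoli markers had 2 of 12 higher and a median of -0.21, endothelial markers 5 of 8 and 0.13, and spermatogonial markers 3 of 9 and -0.08, against a median of -0.02 over all genes. The 15 tested interferon genes had a median of -0.11. All 4 tested genes of antigen presentation were lower over pigs, at -0.28 to -0.14. Over families 1 of the 4 was higher and the median was -0.05. HSPA8, a constitutive chaperone, had -0.57 (SE 0.20, adjusted p = 0.303) and FOS, an immediate early transcription factor, -0.63 (SE 0.26, adjusted p = 0.379), in a list with 4 of 11 higher and a median of -0.14. Over families that list had 6 of 12 higher and a median of 0.0082. With index set in the fit to 32 pigs HSPA8 had -0.03, and FOS had -0.35 without low replicate 3. HBB, the 1 blood cell marker tested, had 0.62 (SE 0.46) over pigs and 0.06 over families, with a summed blood level of 14.2 to 102 CPM in high pigs and 8.01 to 64.0 CPM in low pigs. The 2 tested epididymis markers had a median of -0.16, and 5 of 9 genes of luteinizing hormone and Leydig regulation were higher, with a median of 0.03.

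**Figure D5:**
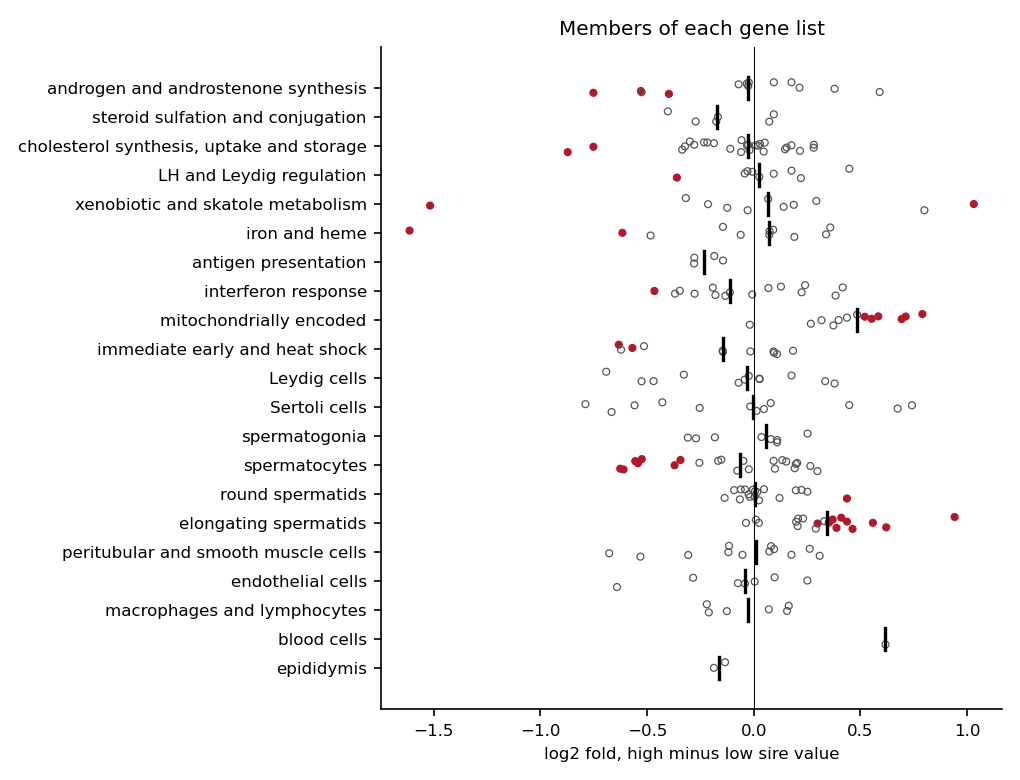
Log2 fold of high minus low sire group (horizontal axis) for each tested member of the 21 gene lists, filled where the unadjusted p was under 0.05, with a black bar at the list's median. Elongating spermatid markers and mitochondrially encoded genes lie to the right of 0 with medians of 0.34 and 0.48, and ABCB10 is the leftmost point of iron and heme at -1.61.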

How the data were processed

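Testis messenger RNA libraries of 32 pigs were prepared by the TruSeq stranded mRNA method, per the labels' protocols. The authors deposited raw read counts per Ensembl gene, 1 file per pig with 25322 identifiers and 5 closing rows that were left out. The submitters' processing notes name STAR, HTSeq 0.6.0, SAMtools 1.3.1, cutadapt 1.8.1 and Trimmomatic 0.33. The strand setting, genome build and annotation release are not given in the sources used here. Reads of genes that overlap, or lie antisense to each other, may therefore be mixed. Reads in no gene made up 20.6% to 39.6% of a library. A symbol was found for 11804 identifiers.

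The main fit used edgeR 4.0.16 in R 4.3.3 (filterByExpr, TMM, quasi-likelihood F test, Benjamini-Hochberg 0.05) on 17 pigs, with diet and a term for libraries above 8000000 gene counts. A second fit summed the counts of plain libraries per family, of which sow 1235 had 1 and the other families 2 or 3. Levels are TMM-scaled CPM. A list's mean log2 CPM uses a prior count of 2. SE was taken from the fold and its F statistic. Counts of 66 pairs of libraries of 1 group differed by at least 5.14 times the sampling variance. Alternatives used DESeq2 1.42.0, limma 3.58.1 (within-sow correlation 0.101), other filters and terms, and leaving out pigs or families. The scripts were tested on simulated data. Phenotypes were tested by exact permutation in scipy 1.17.1.

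The genes to name were to be up to 12 called genes per direction, filled up to 5 per direction by smallest p, plus 8 genes of androgen synthesis and Leydig function. List examples are the members with the smallest p and were chosen after their values were seen. The groups and lists were chosen with earlier results of these data known. Skatole was not analysed here, and 2 genes that these rules would name are not reported here. Replicate numbers follow accession order within a group.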

Additional observations from a re-analysis of the deposited data

Results flagged for a closer look

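In 92 groups of pigs, each a gene's CPM, a list level or a phenotype in the high or the low group, 20 had an end value far from its neighbour by Dixon's test at 95%. Chance alone would flag about 1 in 20 such groups if values were normally distributed, which was not checked for CPM. All flagged values were the highest of their group, and values of genes in 1 pig are not independent. Pig by pig, high replicate 3 (sow 210) had the highest SRD5A1 of its group at 158 CPM (next 87.0), LHCGR at 8.67 (next 3.67), INSL3 at 2378 (next 963) and CYP4B1 at 57.5 (next 31.1). Low replicate 2 (sow 773) had the highest CYP17A1 at 2889 CPM (next 961), CYP11A1 at 432 (next 209), NR5A1 at 11.6 (next 5.70) and NPC1 at 19.7 (next 11.5). Both pigs were thus high in genes of Leydig cells, 1 in each group.

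Low replicate 3 (sow 1014), the deep low library, had ND4L at 379 CPM (next 69.8), ND4 at 2636 (next 1427) and FOS at 48.2 (next 16.5). High replicate 5 (sow 210), also deep, had ND4 at 8584 CPM (next 4837), and high replicate 4 had MYBL1 at 26.6 (next 17.4). High replicate 9 (sow 1235) had SPATC1 at 311 CPM (next 207) and PRM1 at 24922 (next 16495). Single values were SERPINB5 at 26.8 CPM in low replicate 7 (next 15.9), FMO1 at 197 in low replicate 6 (next 36.1), PAPPA at 17.05 in high replicate 7 (next 10.8), HIP1R at 9.87 in high replicate 2 (next 6.25) and ENSSSCG00000027805 at 4.90 in high replicate 10 (next 0.912).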

How the results depend on the processing

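No paired analysis was possible because each sow and each sire value lay wholly in 1 group, so no family spanned the comparison. The replicate numbers follow accession order and tie no pigs together. The pig-level count of 1 called gene became 50 with DESeq2, 22 without a low-count filter, 10 without the depth term, 2 with the sire value as a number, 2 without the pig of no AS group, 2 with AS group or carcass weight (fits that also lack that pig), and 0 with voom and sow as a random effect (1093 genes at an unadjusted p under 0.05) and in both fits to 32 pigs (888 with the depth term and 512 with index set). Leaving out single pigs or families gave 0 to 4. The family-level count of 1 became 3 with all 17 pigs summed, 11 with DESeq2, 0 with limma voom (631), 2 with DESeq2 size factors and 25 without a filter, and leaving out families gave 0 to 4. ABCB10 remained lower in all 38 alternatives (log2 fold -1.86 to -0.89) and passed in 10 of 15 settings, in 14 of 17 fits without 1 pig and in 2 of 6 without 1 family. Besides the pig named above, it missed without high replicate 6 (adjusted p = 0.0509) and low replicate 5 (0.0512), and without sow 1235 (0.0851), 210 (0.370), 1134 (0.0597) or 1014 (0.282). The fit without low replicate 7 is also the one without the pig of no AS group, and it is counted under both names.

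Signs turned for steroidogenic genes whose log2 folds were near 0 and, with index set, for SPATC1 and spermatid markers. With voom, CYP17A1 was 0.074, CYP11A1 0.00124, LHCGR -0.00955 and NR5A1 0.058. In plain libraries alone CYP17A1 was 0.24 and CYP11A1 0.0634, and without lane 7 0.23 and 0.0633. LHCGR and INSL3 were -0.033 and -0.14 without the depth term, -0.079 and -0.11 without diet, -0.26 and -0.27 with AS group, and -0.091 and -0.048 with the sire value as a number. INSL3 was -0.15 with carcass weight and -0.083 without the pig of no AS group. CYP17A1 and CYP11A1 were 0.035 and 0.057 over 32 pigs. With index set over 32 pigs CYP17A1 was 0.063, CYP11A1 0.17, NR5A1 0.52, SPATC1 -0.21, SPATA3 -0.19, PRM2 -0.083, PRM1 -0.46, ODF2 -0.011 and GAPDHS -0.30, and the elongating spermatid median was -0.40. Leaving out pigs or families moved CYB5A between -0.026 and 0.41, CYP11A1 between -0.45 and 0.27, CYP17A1 between -0.30 and 0.30, INSL3 between -0.33 and 0.25, LHCGR between -0.38 and 0.31, NR5A1 between -0.67 and 0.34, the spermatocyte median between -0.14 and 0.016, and the carcass weight difference between -0.857 and 6.08 kg. The causes were not tested. The androstenone difference kept its direction and threshold over pigs in all 7 alternatives, at 2.31 to 3.41 mg/kg without 1 family. Plain libraries of 1855174 to 5993637 gene counts limit what genes of a few CPM can show.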
